A study of Mus musculus with 6 samples.

Results

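The 74 genes described here are named for mitochondrial ribosomal proteins, and all but Mrps36, which is kept in the counts, encode such proteins. They were taken from the annotation of the array as the genes with a symbol that starts with Mrpl or Mrps followed by a digit, counting only probe sets with 1 gene symbol. A probe set is the group of short oligonucleotides that measures 1 transcript. The 74 genes had 127 probe sets, and each gene is represented by the probe set of highest mean over the 6 arrays. The levels of the diets were not used in this choice. All 74 lay above the filter on low signals, a mean signal of 40.7, and belong to the 8326 genes with a probe set above it.

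The RNA came from the aorta of C57BL/6J mice, a common inbred strain, and was measured on 6 Affymetrix arrays. The high fat group held 3 arrays of mice on that diet for 16 to 18 weeks, and the chow group held 3 arrays of mice on regular chow. Each array carried pooled RNA of 3 aortas, described as freed of adventitia and periaortic fat. Thus n = 3 pools per diet, and the spread given is that between pools, not between animals. Mice of high fat replicates 2 and 3 started the diet when 10 weeks old, and those of chow replicates 2 and 3 were 26 to 28 weeks old, while high fat replicate 1 was labelled as 16 to 20 weeks old and no age was stated for chow replicate 1. The animals were male, except that the label of high fat replicate 1 stated no sex. The stated ages and diet times match for replicates 2 and 3 of both diets. The age on the label of high fat replicate 1 leaves little time for its diet, and whether it is the age at collection is unclear.

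Mitochondria keep a small genome, and the proteins it encodes are core subunits of the respiratory chain and of ATP synthase. They are made inside the organelle on a ribosome of its own. The ribosomal RNAs come from the mitochondrial genome, while each of the proteins studied here is encoded in the nucleus, made in the cytosol and imported. The small subunit binds the messenger and decodes it, and the large subunit joins the amino acids and leads the new chain to the inner membrane. Some of the proteins have counterparts in bacterial ribosomes and others are found only in mitochondria. Tissues with a high oxidative capacity, such as heart, muscle and brown fat, are known for a high content of these ribosomes.

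Most of the 74 genes had a higher mean on high fat diet, by a small amount, and no single gene passed the test. The mean was higher for 56 genes (75.7%) and lower for 18, against a higher mean for 48.2% of the 13575 probe sets tested. The median log2 fold change was 0.18 for the 74 genes and -0.01 for all probe sets tested, with the middle 50% of the genes between 0.01 and 0.29. All 3 high fat arrays lay above all 3 chow arrays for 20 of the 74 genes (27.0%), which was the case for 6.26% of all probe sets. The opposite order, seen in 6.08% of all probe sets, was found for 0 of the 74. These log2 fold changes are on the scale of log2(signal + 6).

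The test was limma, a linear model for arrays, with Benjamini-Hochberg adjustment over all probe sets tested. At an adjusted p of 0.05 it called 10 probe sets in all (0.0737%), and 0 of the 74 genes. At an unadjusted p of 0.05 there were 8 members with a higher mean (10.8%, against 3.92% of all probe sets) and 1 with a lower mean (3.11% of all probe sets). Leaving out high fat replicate 2 reduced the 8 to 1 (2.5% of all probe sets). Leaving out high fat replicate 3 or chow replicate 1 reduced them to 2 (4.71% and 3.59% of all probe sets), so that the members' share lay below that of all probe sets in these 3 settings. Leaving out chow replicate 2 gave 4 (2.93% of all) and leaving out chow replicate 3 gave 13 (4.54% of all). The smallest adjusted p of a member was 0.633, and the standard error of a member's log2 fold change lay between 0.13 and 0.29 with a median of 0.17. When the medians of the arrays were set equal, the 20 genes without overlap became 11 (4.88% of all probe sets) and the 8 became 0 (3.03% of all probe sets), with a median log2 fold change of 0.14 for the members and -0.05 for all probe sets tested.

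**Figure D1:**
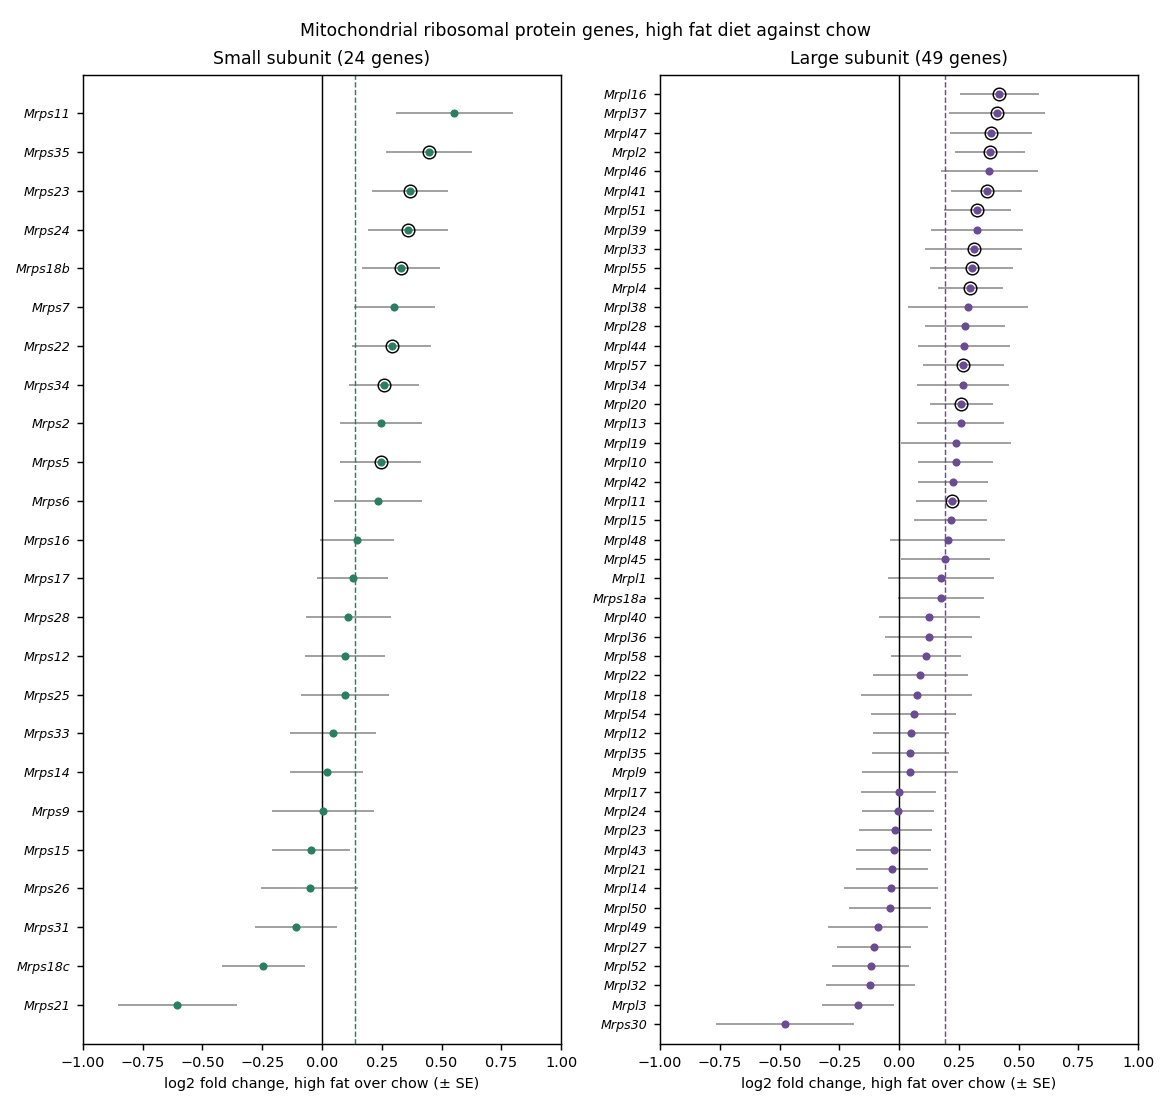
Log2 fold change of high fat over chow (x axis, points with SE as bars) for the 24 small subunit genes on the left and the 49 large subunit genes on the right, Mrps36 not shown. Circles mark genes whose 3 high fat arrays all lay above the 3 chow arrays, and the dashed lines mark the medians of 0.14 and 0.19. Most points lie right of 0, with bars of a length close to the changes themselves.

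The small subunit was represented by 24 genes, of which 19 (79.2%) had a higher mean on high fat diet, against 48.2% of all probe sets. Their median log2 fold change was 0.14. For 7 of them all high fat arrays lay above all chow arrays, an order seen in 6.26% of all probe sets. The median was 0.22 without chow replicate 3. The large subunit was represented by 49 genes, of which 36 (73.5%) had a higher mean, with a median of 0.19 and 12 genes higher without overlap. Here the median was 0.12 without high fat replicate 2. Mrps18a and Mrps30 are counted with the large subunit, to which their proteins belong in the structure of the mammalian mitochondrial ribosome. Mrps36 is counted with neither, since its product is now known as a component of the 2-oxoglutarate dehydrogenase complex. Genes with a bacterial counterpart (46, median 0.16, 35 with a higher mean) and genes without one (28, median 0.21, 21 with a higher mean) are given side by side. Mrps36 is among the 28, and the difference between the groups was not tested.

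Among the small subunit proteins that line the decoding site and the path of the messenger, Mrps12, Mrps24, Mrps5, Mrps7 and Mrps11, all 5 genes had a higher mean on high fat diet. Their median log2 fold change was 0.30. This group was picked with its values in view. It leaves out the 5 small subunit genes with a lower mean, among them Mrps21 (-0.60) and Mrps18c (-0.25). Mrps24, the counterpart of the bacterial protein at the entry of the messenger channel, had signals of 385.2, 377.4 and 356.6 on high fat diet, against 237.5, 291.2 and 349.9 on chow. The lowest high fat array lay just above the highest chow array, and the log2 fold change was 0.36 ± 0.17 (SE, adjusted p = 0.715). Another probe set of Mrps24, also above the filter, had -0.14. Mrps11, the counterpart of a protein of the platform where the messenger leaves, had 74.0, 98.7 and 123.4 on high fat diet, against 86.3, 59.4 and 50.8 on chow. High fat replicate 1 lay below chow replicate 1, so that the diets overlapped, and the log2 fold change of 0.55 ± 0.25 was the highest of the 74 (adjusted p = 0.700). Mrps12, the counterpart of the bacterial protein at the decoding site, had a log2 fold change of 0.10 ± 0.17.

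Other small subunit genes with small unadjusted p-values were Mrps35 and Mrps23, which encode proteins without a bacterial counterpart. Mrps35 had signals of 236.2, 207.6 and 262.5 on high fat diet, against 137.2, 187.6 and 191.3 on chow. All high fat arrays were above all chow arrays, and chow replicate 1 was the lowest (log2 fold change 0.45 ± 0.18, adjusted p = 0.646). Mrps23 had 229.4, 298.2 and 265.5 on high fat diet, against 183.9, 203.4 and 221.2 on chow. The diets again did not overlap (0.37 ± 0.16, adjusted p = 0.684). Mrps36, the gene of the 2-oxoglutarate dehydrogenase component, had 368.7, 381.3 and 322.9 on high fat diet, against 275.8, 265.3 and 313.3 on chow, with no overlap (0.32 ± 0.15, adjusted p = 0.707). Mrps22, a small subunit gene mutated in a human mitochondrial disease, had 0.29 ± 0.16 without overlap.

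In the large subunit, genes of the peptidyl transferase centre, where peptide bonds are formed, had higher means for 2 of 4. Mrpl2, the counterpart of bacterial L2 beside that centre, had signals of 390.6, 454.5 and 375.2 on high fat diet, against 282.2, 322.6 and 326.6 on chow. Every high fat array lay above every chow array, and its adjusted p of 0.633 was the smallest of the 74 (log2 fold change 0.38 ± 0.15, SE). Mrpl16, the counterpart of bacterial L16, had 504.7, 604.8 and 544.0 on high fat diet, against 331.3, 438.7 and 473.2 on chow. The diets did not overlap, and chow replicate 1 was well below the other chow arrays (0.42 ± 0.16, adjusted p = 0.639). Mrpl3 and Mrpl27, counterparts of bacterial L3 and L27, had lower means, with log2 fold changes of -0.17 ± 0.15 and -0.10 ± 0.15.

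Of the 4 stalk genes, Mrpl1, Mrpl10, Mrpl11 and Mrpl12, which belong to the flexible parts that handle transfer RNA and bind translation factors, all had a higher mean, with a median log2 fold change of 0.20. Mrpl12, whose product also binds the mitochondrial RNA polymerase, had the smallest, 0.05 ± 0.16. The 8 genes of the exit tunnel and its rim were split, with a higher mean for 4, a lower mean for 4 and a median of 0.04. Mrpl47, the counterpart of bacterial L29 at the rim, had 105.8, 119.2 and 129.1 on high fat diet, against 98.1, 88.7 and 80.2 on chow. Its diets did not overlap (0.38 ± 0.17, adjusted p = 0.706). Mrpl4, the counterpart of bacterial L4 in the tunnel wall, had 417.3, 464.0 and 420.6 on high fat diet, against 355.6, 368.6 and 331.6 on chow, also without overlap (0.30 ± 0.14, adjusted p = 0.707). Mrpl45, which binds the inner membrane at the tunnel exit, had 0.19 ± 0.19, and Mrpl17, Mrpl23 and Mrpl24 lay between -0.02 and 0.00. The role groups, of the small and the large subunit, hold 21 of the 74 genes, and all but Mrpl45 were placed by their bacterial counterparts. They were picked with their values in view, so a shared direction within a group is a description only.

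Mrpl41 and Mrpl51 encode large subunit proteins found only in mitochondria. Mrpl41 had signals of 366.5, 427.7 and 415.2 on high fat diet, against 279.0, 343.5 and 313.0 on chow. The lowest high fat array was above the highest chow array (log2 fold change 0.37 ± 0.15, adjusted p = 0.649). Mrpl51 had 681.9, 829.8 and 734.1 on high fat diet, against 609.4, 532.0 and 645.6 on chow. The diets did not overlap (0.33 ± 0.14, adjusted p = 0.680).

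The 18 genes with lower means were led by Mrps21 and Mrps30. Mrps21, the counterpart of bacterial S21 in the small subunit, had signals of 253.3, 219.8 and 139.2 on high fat diet, against 221.3, 351.7 and 361.6 on chow. Chow replicate 1 lay within the high fat range, so that the diets overlapped, and the log2 fold change of -0.60 ± 0.25 was the lowest of the 74 (adjusted p = 0.667). Mrps30, a large subunit gene, had 103.0, 155.5 and 60.7 on high fat diet, against 173.6, 132.8 and 121.1 on chow. High fat replicate 2 lay among the chow arrays and the high fat values spread widely (-0.48 ± 0.29, adjusted p = 0.781). Without high fat replicate 3, the lowest array of both genes, the log2 fold change was -0.36 for Mrps21 and -0.15 for Mrps30. Mrps18c, a counterpart of bacterial S18, had -0.25 ± 0.17. Mrpl32, whose precursor is cut on import by a protease of the inner membrane, had -0.12 ± 0.19. Mrpl52, Mrps31, Mrpl49 and Mrps15 had log2 fold changes of -0.12, -0.11, -0.09 and -0.05.

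**Figure D2:**
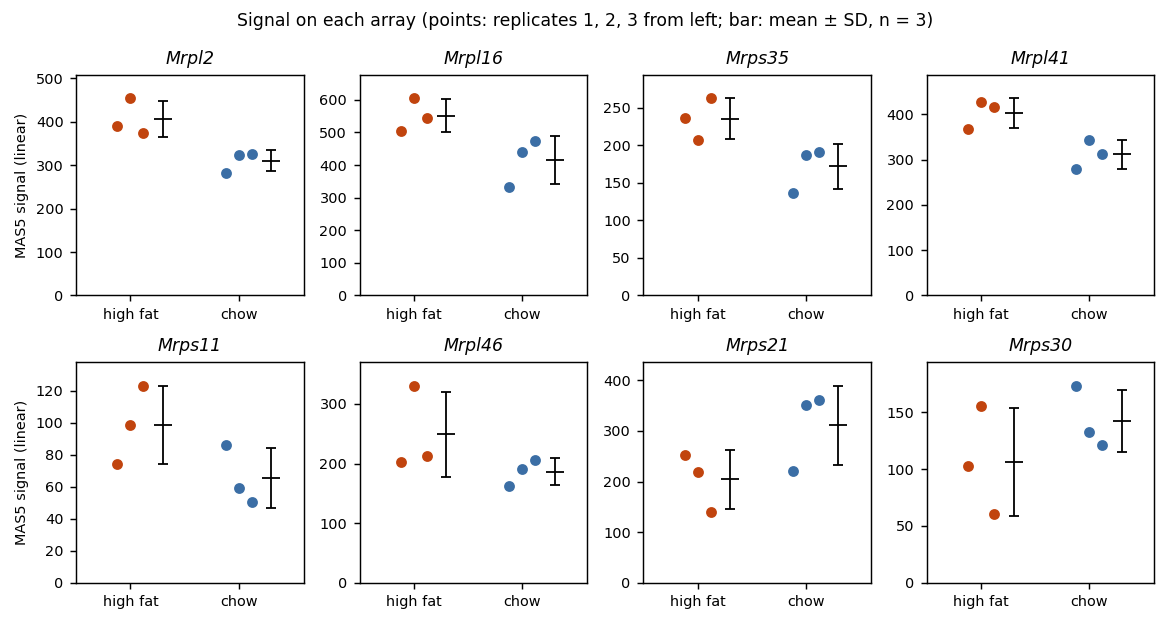
MAS5 signal on a linear scale (y axis) for 8 members, with high fat arrays left of chow arrays and the mean ± SD (n = 3) beside each group. The diets do not overlap for Mrpl2, Mrpl16, Mrps35 and Mrpl41, and they overlap for Mrps11, Mrpl46, Mrps21 and Mrps30.

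Promoters are shown for Mrpl2 and Mrpl16, the pair of smallest p with higher means, and for Mrps21 and Mrps30, the pair with lower means. They are given 5′ to 3′ from 160 bases before the annotated start to 30 bases after it, in RefSeq coordinates of GRCm38.p6. The window of Mrpl2 is chr17:46646061-46646250 on the plus strand (the first of 3 starts in the table), that of Mrpl16 chr19:11770255-11770444 on the plus strand, that of Mrps21 chr3:95871485-95871674 on the minus strand and that of Mrps30 chr13:118387223-118387412 on the minus strand. Capitals mark matches to the motifs named below.
Mrpl2: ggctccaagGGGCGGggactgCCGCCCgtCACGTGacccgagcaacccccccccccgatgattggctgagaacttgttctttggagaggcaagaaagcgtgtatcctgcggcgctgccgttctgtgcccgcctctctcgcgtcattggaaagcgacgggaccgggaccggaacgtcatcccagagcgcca
Mrpl16: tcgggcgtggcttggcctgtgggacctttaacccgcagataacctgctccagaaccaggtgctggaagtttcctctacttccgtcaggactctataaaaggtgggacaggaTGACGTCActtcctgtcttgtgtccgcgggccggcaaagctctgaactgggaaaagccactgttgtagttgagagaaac
Mrps21: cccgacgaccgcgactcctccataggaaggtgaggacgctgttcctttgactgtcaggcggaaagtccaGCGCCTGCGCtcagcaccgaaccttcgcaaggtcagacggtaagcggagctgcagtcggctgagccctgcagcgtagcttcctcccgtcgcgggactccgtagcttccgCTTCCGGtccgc
Mrps30: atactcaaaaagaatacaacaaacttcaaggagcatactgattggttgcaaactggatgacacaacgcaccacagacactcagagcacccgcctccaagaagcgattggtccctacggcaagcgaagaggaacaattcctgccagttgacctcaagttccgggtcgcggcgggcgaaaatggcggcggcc
The Mrpl2 window holds an E-box and a pair of SP1 motifs, and the Mrpl16 window holds a CREB motif 49 bases before the start. The Mrps21 window holds an NRF1 motif 91 bases before the start and an ETS motif just after it, and the Mrps30 window holds none of the motifs searched.

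Of the 74 genes, 65 had a promoter in the RefSeq table, with 71 annotated starts. Each window of 300 bases, 250 before the start and 50 after it, was searched on both strands for 7 motifs, and matches that overlap another motif were kept. The NRF1 motif (GCGCA, then any base, then GCGC), bound by a factor known for nuclear genes of the respiratory chain, was found in 16.9% of the members' promoters, against 6.38% of the 21262 promoters of all protein-coding genes and 9.87% of those of genes tested here. The ETS motif CCGGAAG, bound by GABPA among others, was found in 33.8% of the members' promoters, against 11.6% of all and 16.9% of tested genes' promoters. The YY1 motif AAGATGGCG was found in 9.86%, against 1.83% and 2.97%. The SP1 motif GGGCGG, the CREB motif TGACGTCA and the E-box CACGTG were found in 54.9%, 2.82% and 9.86% of the members' promoters, against 46.2%, 2.23% and 7.84% of all and 62.6%, 2.95% and 9.94% of tested genes' promoters. The ESRRA motif TCAAGGTCA was found in 0 of the 71 and in 0.334% of all promoters. The median GC content was 58.7% for the members, 56.3% for all and 60.7% for tested genes.

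The motifs did not go along with the size of the diet difference in a single way. The 24 genes with an ETS motif had a median log2 fold change of 0.09 and the 41 without had 0.22. The 12 genes with an NRF1 motif had 0.03 and the 53 without had 0.18. The 7 genes with a YY1 motif had 0.22 and all 7 had a higher mean, while the 58 without had 0.13. These medians are descriptions and were not tested, and a match of letters is not a site of binding.

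Many of the members start back to back with another gene. A protein-coding gene on the other strand began within 1000 bases upstream for 22 of the 65 genes (33.8%), against 8.48% of all 17491 protein-coding genes and 12.9% of tested genes. In 1 such pair both genes encode mitochondrial ribosomal proteins: the starts of Mrps11 in the small subunit and Mrpl46 in the large subunit lie 42 bases apart. Mrpl46 had signals of 203.4, 331.0 and 212.2 on high fat diet, against 162.3, 190.9 and 206.0 on chow. High fat replicate 1 lay below chow replicate 3, and the log2 fold change was 0.38 ± 0.20 (adjusted p = 0.753), beside 0.55 for Mrps11. The pair, chosen after its values were seen, shares the region printed here from 160 bases before to 30 bases after the start of Mrps11 (chr7:78782971-78783160 of GRCm38.p6, plus strand), with a YY1 motif on the other strand and an SP1 motif in capitals.
Mrps11: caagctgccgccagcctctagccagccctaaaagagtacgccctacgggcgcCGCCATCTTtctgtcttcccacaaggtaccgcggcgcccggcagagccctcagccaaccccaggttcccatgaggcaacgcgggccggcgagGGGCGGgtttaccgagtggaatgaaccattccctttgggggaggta
Of the partners, 11 were measured above the filter, with Mrps11 and Mrpl46 each counted as the partner of the other, and 8 of them had a higher mean on high fat diet. The median log2 fold change was 0.25 for those partners and 0.13 for the members beside them, and 7 of the 11 pairs had the same sign. Mrpl47 stands beside Ndufb5, a complex I subunit (log2 fold change 0.13), Mrps12 beside Sars2, the mitochondrial seryl-tRNA synthetase (0.28), and Mrpl18 beside Tcp1, a chaperonin subunit (-0.10).

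A second probe set gave a different picture for some genes. Of the 33 members with several probe sets, 18 had the same sign in all and 15 did not: Mrpl1, Mrpl3, Mrpl11, Mrpl15, Mrpl19, Mrpl21, Mrpl34, Mrpl49, Mrpl51, Mrpl52, Mrpl57, Mrps9, Mrps11, Mrps24 and Mrps25. The log2 fold changes lay more than 0.5 apart for 7 of these, Mrpl3, Mrpl11, Mrpl19, Mrpl34, Mrpl51, Mrps9 and Mrps11. The other probe set of Mrps11 had -0.32, with signals of 4.3 to 19.3 on high fat diet and 10.4 to 22.5 on chow, below the filter. Mrps9, the counterpart of bacterial S9, had 0.00 by the probe set of highest mean. Another of its probe sets had 65.9, 64.6 and 58.0 on high fat diet, against 21.6, 39.5 and 43.8 on chow, without overlap (log2 fold change 0.79, adjusted p = 0.564). Over the 34 other probe sets above the filter the median was 0.06, and 22 had a higher mean. Those with a lower mean included probe sets of Mrpl34 (-0.41), Mrpl57 (-0.16), Mrps24 (-0.14) and Mrpl11 (-0.14), genes with a higher mean by the probe set used. With all probe sets of a gene averaged, the median of the 74 genes was 0.11 in place of 0.18, a difference above 1.5 times. In that setting 15 genes were higher without overlap and 1 was lower, against 6.99% and 6.21% of all genes tested. Of the 74 probe sets used, 8 had the suffix _s_at or _x_at, which marks probes that can bind transcripts of related genes.

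**Figure D3:**
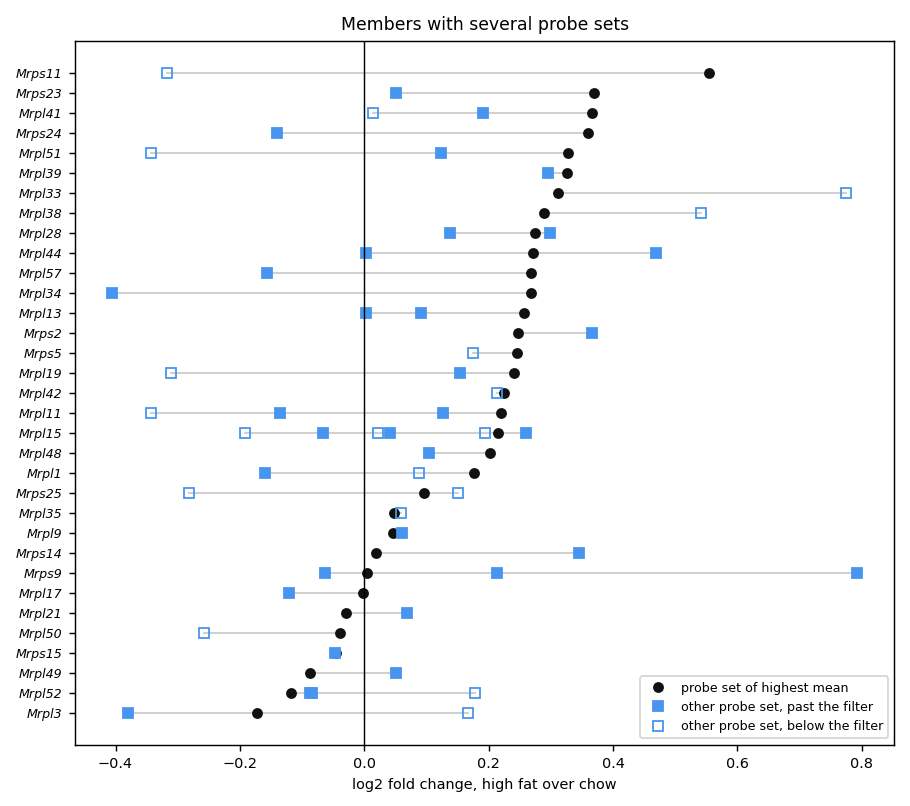
Log2 fold change of high fat over chow (x axis) for each probe set of the 33 members with several, sorted by the probe set of highest mean (black points). Squares are the other probe sets, filled where they passed the filter on low signals, and for 15 genes the symbols fall on both sides of 0.

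The arrays of each diet were not alike. Averaged over the 74 genes, the log2 deviation from each gene's 6-array mean was 0.08, 0.10 and 0.04 on the high fat arrays (replicates 1 to 3), against -0.12, -0.10 and 0.00 on the chow arrays. The diets did not overlap, but chow replicate 3 lay nearer to the high fat arrays than to the other chow arrays. Chow replicate 1 was the lowest array for 30 of the 74 genes (40.5%, against 20.6% of all probe sets), and chow replicate 2 was the highest array for 0 of them (15.3% of all probe sets). The small subunit stood highest in high fat replicate 1, at 0.09, and the large subunit in high fat replicate 2, at 0.13. High fat replicate 2 correlated least with the other 5 arrays, at a mean of 0.953, against 0.961 to 0.965 for the others. Without it, 60 of the 74 genes had a higher mean on high fat diet and the median log2 fold change was 0.15. Actin control probe sets had a 3′ over 5′ signal ratio of 1.27 to 1.94 on high fat diet and 1.37 to 1.79 on chow. For Gapdh control probe sets the ratio was 0.96 to 1.07 on high fat diet and 0.89, 1.38 and 1.18 on chow replicates 1 to 3.

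Markers of other cell types that the tissue could hold differed in direction. Brown adipocyte markers had a higher mean on high fat diet for 8 of 8 on the array, with summed signals of 10540 to 12740 on high fat diet and 6800 to 8995 on chow. Ucp1, the uncoupling protein that defines brown adipocytes, had 3664.2, 3622.7 and 3154.2 on high fat diet, against 2592.5, 2121.6 and 2723.6 on chow. The mean deviation of the 8 markers was 0.18, 0.42 and 0.32 on the high fat arrays, against -0.41, -0.45 and -0.06 on the chow arrays. Among the chow arrays, replicate 3 was the nearest to the high fat arrays. Cardiac muscle markers had a higher mean for 12 of 12, with sums of 1127 to 8635 on high fat diet and 1044 to 4416 on chow. Their mean deviation was -1.24, 1.35 and 0.99 on the high fat arrays, against -0.13, 0.34 and -1.31 on the chow arrays. Macrophage markers had a higher mean for 8 of 9 (sums of 2684 to 4556 on high fat diet and 2061 to 2602 on chow). On chow replicate 3 the mean deviation was -0.20 for macrophage markers and 0.24 for white adipocyte markers. Smooth muscle markers, which define the aortic wall, were lower for 9 of 11 (sums of 27910 to 28850 on high fat diet and 27300 to 33450 on chow). Endothelial markers had a higher mean for 9 of 10 (sums of 1800 to 2192 on high fat diet and 1629 to 1736 on chow), and skeletal muscle markers for 2 of 10 (sums of 312.5 to 569.8 on high fat diet and 310.9 to 972.5 on chow). Only 3 of the 10 skeletal muscle markers lay above the filter on low signals. White adipocyte markers had a higher mean for 6 of 8 (sums of 9368 to 10420 on high fat diet and 9740 to 12910 on chow). Among them Retn, which encodes the hormone resistin, fell (217.5, 215.4 and 217.8 on high fat diet, against 386.0, 482.2 and 523.8 on chow, limma adjusted p = 0.0435). Adventitial fibroblast markers had a higher mean for 4 of 7 (sums of 8019 to 8458 on high fat diet and 8340 to 9165 on chow). The aortas were described as freed of fat and adventitia, yet markers of both were measured on every array. Ucp1 lay at 2121.6 or above, Adipoq at 1559.4 to 2189.5 and the fibroblast marker Dcn at 3153.1 to 4545.1. None of the markers of these cell types was at 0 on any array. Their part in the result was not tested, and in pooled tissue a different share of cells and a different amount of RNA per cell cannot be told apart.

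**Figure D4:**
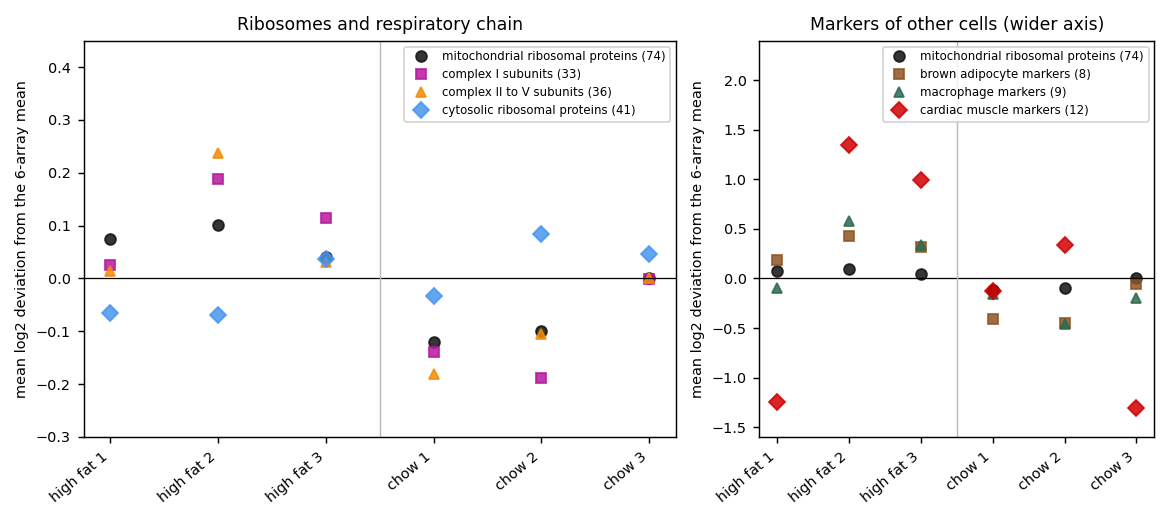
Log2 deviation from each gene's 6-array mean, averaged over a list (y axis), on each array, high fat left of chow. The 74 mitochondrial ribosomal protein genes (black) lie between 0.04 and 0.10 on high fat diet and between -0.12 and 0.00 on chow, and on the right, with a wider axis, the cardiac markers spread from -1.31 to 1.35.

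The other proteins of mitochondrial translation were measured in part. Of 4 ribosomal proteins with other symbols, Dap3 and Ptcd3, both of the small subunit, had log2 fold changes of 0.32 and 0.27, and Chchd1 had -0.07. Of 8 translation factors, 7 had a higher mean, with a median of 0.18 (0.35 without chow replicate 1). Gfm1, the elongation factor that moves the ribosome along the messenger, had signals of 246.8, 373.8 and 262.0 on high fat diet, against 207.4, 216.9 and 205.0 on chow. The diets did not overlap (log2 fold change 0.45 ± 0.18, adjusted p = 0.639). Mrrf, which recycles ribosomes, had 0.30. Mtfmt, which formylates the initiator transfer RNA, had -0.31, with 63.7, 65.0 and 53.7 on high fat diet, against 74.1, 83.3 and 72.4 on chow. Its diets did not overlap either, so that 1 factor was higher and 1 lower without overlap (6.26% and 6.08% of all probe sets). Of 13 genes that charge mitochondrial transfer RNAs, 10 had a higher mean, with a median of 0.22 (0.14 without chow replicate 1). Fars2, which charges phenylalanine, had 0.47 (adjusted p = 0.633), and Gars and Kars, which serve the cytosol as well, had 0.36 and -0.32. Of the 13 genes, 4 were higher without overlap and 1, Kars, was lower without overlap.

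Genes that build the ribosome or keep the mitochondrial genome had medians close to 0 over all those on the array. Of 17 assembly factors, 8 had a higher mean, with a median log2 fold change of -0.02 (0.09 without high fat replicate 3). This median includes genes below the filter on low signals, Fastkd2, Mrm2, Tfb1m and Trub2, with -0.12, -0.39, -0.16 and 0.13. Among the 13 assembly factors above the filter the middle value was that of Mtg1, 0.10. Nsun4, a ribosomal RNA methyltransferase that joins the subunits together with Mterf4, had 95.2, 92.3 and 71.4 on high fat diet, against 57.0, 41.5 and 58.6 on chow. The diets did not overlap (0.66 ± 0.21, adjusted p = 0.536). Mterf3 and Noa1 had -0.41 and 0.26. Of 18 factors of mitochondrial DNA and RNA, 10 had a higher mean, with a median of 0.01 (-0.04 without high fat replicate 2). Elac2, which trims transfer RNAs, had 0.48, the RNA helicase gene Supv3l1 had 0.30 and the RNA exonuclease gene Pnpt1 had -0.38.

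Regulators of mitochondrial content were mixed. Of 11 on the array, 7 had a higher mean, with a median log2 fold change of 0.03, which was 0.17 when either high fat replicate 2 or high fat replicate 3 was left out. Esrra, a nuclear receptor of oxidative metabolism, had 133.9, 136.4 and 115.4 on high fat diet, against 89.0, 97.9 and 86.7 on chow. The diets did not overlap (0.47 ± 0.17, adjusted p = 0.586). Its coactivator Ppargc1b had 333.2, 328.4 and 361.8 on high fat diet, against 234.2, 226.3 and 297.0 on chow, again without overlap (0.43 ± 0.16, adjusted p = 0.594). Ppargc1a had 0.42 ± 0.23.

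The respiratory chain and the cytosolic ribosome are given for comparison. Complex I subunits had a higher mean for 31 of 33 genes, with a median log2 fold change of 0.25 and 8 genes without overlap. Subunits of complexes II to V had a higher mean for 34 of 36, with a median of 0.16 and 4 genes without overlap. Ndufb9, Ndufs4 and Ndufv2 of complex I had 0.44, 0.48 and 0.40, and Uqcrc1 and Uqcrc2 of complex III and Atp5a1 of ATP synthase had 0.58, 0.44 and 0.36. Cytosolic ribosomal protein genes had a lower mean for 33 of 41, with a median of -0.09 and 4 genes without overlap, all lower on high fat diet. Rpl7, Rplp0 and Rpl35 had -0.25, -0.23 and -0.21. None of the genes tested in these 3 lists passed limma at an adjusted p of 0.05. Cox7c of complex IV, Rpl12 and Rpl14 lay below the filter on low signals and were not tested, though the counts of means include them. At an unadjusted p of 0.05 there were 7 complex I genes and 7 genes of complexes II to V, all higher, and 0 cytosolic ribosomal protein genes. Over all probe sets tested, 3.92% were higher and 3.11% were lower at that p. Arrays without overlap were found for 6.26% of all probe sets in the higher and 6.08% in the lower direction. The difference between these lists and the mitochondrial ribosomal proteins was not tested.

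**Figure D5:**
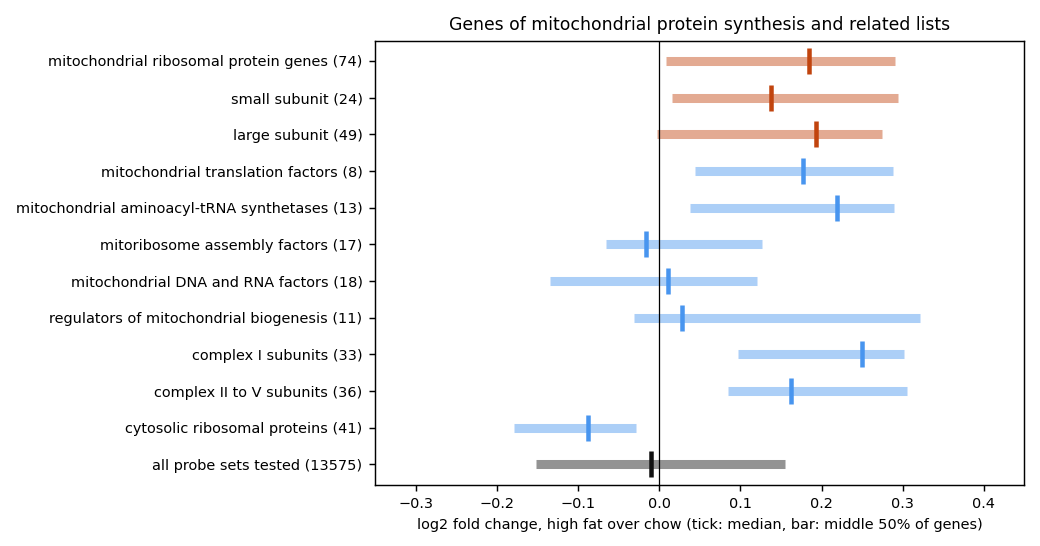
Median log2 fold change of high fat over chow (ticks) and the middle 50% of genes (bars) for the mitochondrial ribosomal proteins and their subunits (orange), related lists (blue) and all probe sets tested (black), with the number of genes or probe sets in brackets. The medians run from -0.09 for cytosolic ribosomal proteins to 0.25 for complex I subunits.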

How the data were processed

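The deposited table gave a linear signal intensity for every probe set on every array, computed by the authors with MAS5 per the submitters' processing notes, which name neither its version nor its settings. The 2% trimmed mean was 150.05 on each array, so the deposited scaling was kept. After removal of 64 controls from 22690 probe sets, 22626 remained. Of these, 20380 had 1 gene symbol in the platform annotation, 691 had several and 1555 had none. Signals under 50 made up 42.0% to 46.3% of each array.

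Signals were transformed as log2(signal + 6), the pseudocount being the 10th percentile of all signals, and fold changes of low genes are understated on that scale. The 13575 probe sets whose mean log2 value exceeded the 40th percentile entered the test. High fat and chow were set against each other by limma (version 3.58.1, R 4.3.3), using lmFit and a two-sided eBayes with a trend in the variance, and Benjamini-Hochberg adjustment covered all 13575. An exact permutation test of 3 against 3 cannot give a p below 0.1. The fit was tested on simulated data with changes larger than those of most members, so that test does not cover changes of the size seen here. Tables were made with pandas 2.3.3 and numpy 2.4.6 under Python 3.11.15, and figures with matplotlib 3.10.9. The number of arrays limits the precision.

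The members, the gene lists and the tests were chosen with earlier results of these data known. Named members were the 10 of smallest unadjusted p in each direction and those whose probe sets differed in sign or by over 0.5. From each related list the 3 genes of smallest p were named. Ucp1, members named only for a role, divergent partners and the role groups were picked with their values in view. Promoter sequences come from RefSeq. Alternatives were other pseudocounts (1 and 21), filters, normalizations, variance models, weights for arrays, a block for the replicate number, each array left out, averaging a gene's probe sets and a fit on 1 probe set per gene. The count of genes without overlap was added to the alternatives after seeing the data.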

Additional observations from a re-analysis of the deposited data

How the results depend on the processing

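The 10 probe sets past the threshold became 6 without a filter, 5 without a variance trend, 5 with the replicate block and 6 in the fit on 1 probe set per gene, and 5 to 16 with 1 array left out. In all 17 other settings 0 of the members tested passed, which were 68 with the filter at the 60th percentile and 71 with probe sets averaged. Members with a higher mean numbered 51 to 60 and their median log2 fold change was 0.14 to 0.22 with 1 array left out, and the median was 0.11 when a gene's probe sets were averaged. The 20 genes without overlap became 11 with equal medians (4.88% of all probe sets) and 22 to 30 with 1 array left out (9.19% to 14.1% of all), where 0 to 4 members were lower without overlap (9.72% to 13.1% of all). The 8 genes at an unadjusted p of 0.05 became 0 with equal medians (3.03% of all probe sets), 5 with the replicate block and 1 to 13 with 1 array left out (2.5% to 4.71% of all). With 1 array left out the median of the small subunit was 0.10 to 0.22 and that of the large subunit 0.12 to 0.22, and the large subunit median was 0.0729 when they were averaged. Of 20 named members, the 10 with higher means kept their sign in all settings, and 3 with lower means changed sign with 1 array left out, Mrpl32 (-0.22 to 0.0283), Mrpl49 (-0.31 to 0.0493) and Mrps15 (-0.0943 to 0.0361). The replicate numbers were not used as pairs in the main fit. The deviations of same-numbered arrays correlated at 0.03, 0.17 and -0.11, and those of other pairs at -0.16 to 0.14. With 3 arrays per diet these values cannot exclude a shared batch. Detection calls were not used, so how far a low signal stood above background is not given. A log2 change of the size seen here is near the standard error of a single gene with 3 pools per diet.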
